A study of Mus musculus with 2 samples.

Results

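The genes described here encode the chains of collagens and laminins, which build the extracellular matrix, and of integrins, the cell surface receptors that bind it. They were chosen by symbol alone: Col followed by a digit, or Lama, Lamb, Lamc, Itga or Itgb followed by a digit, with Itgav, Itgam, Itgal and Itgax added. The rule matched 84 of 31053 genes. Of these, 80 encode chains, namely 44 collagen, 11 laminin and 25 integrin chains (16 alpha and 9 beta), and 4 are proteins only named after a chain (Col4a3bp, Itgb1bp1, Itgb1bp2 and Itgb3bp). All counts below refer to the 80 chains, and the other 4 symbols are described at the end.

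The study made 2 single-cell RNA-seq libraries from mice to characterize the dorsal ventricular-subventricular zone (V-SVZ), the germinal layer along the lateral ventricles, around birth. The embryonic day 18 (E18) library was from CD1 mice, and its tissue was cortex with the dorsal V-SVZ attached. The postnatal day 2 (P2) library was from Emx1Cre;R26Eyfpfl/fl mice, and its tissue was dorsal and lateral V-SVZ with the cortex removed. In these P2 mice Cre under Emx1 switches on EYFP, so that EYFP marks cells descended from the Emx1-expressing cortical lineage. Both tissues were dissociated with papain, and intact nucleated cells were sorted as those stained by DRAQ5 but not by propidium iodide. Each age is 1 library, so age, dissection, mouse line and library cannot be told apart, no test across samples was possible and no p-value is given. Every interval below is a 95% interval for counting error only.

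Collagens assemble from 3 chains into fibrils, networks or fibril-associated molecules. Type IV collagen and the laminins, heterotrimers of an alpha, a beta and a gamma chain, form basement membranes, the thin sheets around brain vessels and under the pial surface. Integrins pair 1 alpha with 1 beta chain: Itgb1 pairs with many alpha chains to bind laminin and collagen, Itgav pairs with Itgb5 or Itgb8 among others to bind RGD-containing ligands such as latent TGF-beta, and Itgb2 pairs with Itgam, Itgal or Itgax on leukocytes. In the germinal zones around the ventricles, stem cells contact the ventricle on one side and vascular basement membrane on the other.

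After filtering, 2496 E18 and 2296 P2 cells were clustered without the genes described here and were classed by marker lists, so that each class name means cells like that type by its markers. The E18 library gave 90 cells of the radial precursor or stem cell class, 106 cycling cells, 99 excitatory intermediate progenitors, 51 oligodendrocyte precursors, 10 microglia and 2133 neurons (1833 excitatory and 300 inhibitory). The P2 library gave 88 radial precursor or stem cells, 287 cycling cells, 153 inhibitory intermediate progenitors, 81 oligodendrocyte precursors, 40 ependymal cells, 43 microglia and 1500 neurons (216 excitatory, 1127 inhibitory and 157 striatal projection neurons). The inhibitory cells are neuroblasts or interneurons and are called inhibitory neurons below. The inhibitory intermediate progenitors are 1 cluster led by replication genes such as Mcm3, Mcm2 and Uhrf1, with cycling markers at 1412 CPM beside 1303 CPM of their own list. Of the 40 ependymal cells, 32 were moved in from other clusters because they had 4 to 6 ependymal markers, 29 of them from the radial cluster. Those 32 held 664 CPM of ependymal and 28826 of radial markers, against 7340 and 7675 in the 8 cells of the ependymal cluster. The P2 radial precursor or stem cell class also expressed all 12 markers of the astrocyte list, at a summed 3824 CPM (UMIs of a gene scaled to a common class total) against 1387 CPM and 8 of 12 at E18, so stem cells and young astrocytes are not separated in it. Another 102 P2 cells in 3 clusters stayed unnamed. Endothelial, mural and fibroblast-like cells formed no class: at E18, 1 endothelial and 5 mural cells were set aside, and no class of either library is taken for vascular cells here. The level used throughout is the CPM of a class, in which the pooled UMIs (molecules counted) of a gene are scaled by the total of the class.

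The chains held 3430 UMIs among all kept E18 cells and 13654 at P2. At E18, 69 of 80 chains had 1 or more UMIs, 38 had 10 or more and 9 had 100 or more. At P2 these numbers were 77, 61 and 19. Only Col10a1 had 0 UMIs in both libraries, Col3a1 and Lamc3 had 0 at P2, and a zero here says only that the chain was not detected at this depth. In ratios between groups, a chain was compared where the pooled level gave at least 5 expected UMIs in each group, and it was counted as higher or lower when its CPM differed 2-fold or more. By this rule 39 chains could be compared in 1 or more contrasts and 41 in none. A chain restricted to 1 class often misses the minimum, since the minimum is set on the pooled level, and such chains are given by their levels.

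The type IV collagen genes are shown first by sequence, since they lie in head-to-head pairs whose members differed in their levels across these classes. Col4a1 and Col4a2 start 21 bases apart on chromosome 8, Col4a3 and Col4a4 start 72 bases apart on chromosome 1, and Col4a5 and Col4a6 start 1309 bases apart on chromosome X, all on opposite strands. The promoter window of Itgam is added because that gene was detected almost only in microglia. Each line gives 250 bases before to 50 bases after a RefSeq start (GRCm38.p6), and 59 of the 80 chains had such an entry. Capitals mark CCAAT and GGGCGG on either strand in the Col4 windows, and GAGGAA on either strand in the Itgam window.
Col4a1 (chr8:11312777-11313076, minus strand, 74.0% GC, also holding the Col4a2 start): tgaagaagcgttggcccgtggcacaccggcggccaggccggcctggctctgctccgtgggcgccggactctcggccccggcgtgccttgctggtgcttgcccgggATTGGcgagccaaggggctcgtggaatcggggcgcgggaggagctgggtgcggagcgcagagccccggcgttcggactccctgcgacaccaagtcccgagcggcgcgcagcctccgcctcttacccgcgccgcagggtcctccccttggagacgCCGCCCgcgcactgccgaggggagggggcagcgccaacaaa
Col4a4 (chr1:82586800-82587099, minus strand, 63.3% GC, also holding the Col4a3 start): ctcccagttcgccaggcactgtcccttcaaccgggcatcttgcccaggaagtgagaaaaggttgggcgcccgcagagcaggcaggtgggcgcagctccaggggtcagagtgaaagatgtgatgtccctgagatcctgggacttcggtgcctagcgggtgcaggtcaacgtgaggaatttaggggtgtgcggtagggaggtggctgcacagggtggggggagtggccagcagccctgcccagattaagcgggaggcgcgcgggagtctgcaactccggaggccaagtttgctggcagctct
Col4a5 (chrX:141475169-141475468, plus strand, 52.7% GC): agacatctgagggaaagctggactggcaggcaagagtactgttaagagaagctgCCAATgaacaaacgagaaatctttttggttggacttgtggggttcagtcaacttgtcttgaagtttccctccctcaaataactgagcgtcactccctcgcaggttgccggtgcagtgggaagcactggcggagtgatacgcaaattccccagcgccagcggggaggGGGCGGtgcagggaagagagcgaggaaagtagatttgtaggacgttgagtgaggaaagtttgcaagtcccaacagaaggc
Col4a6 (chrX:141474027-141474326, minus strand, 48.3% GC): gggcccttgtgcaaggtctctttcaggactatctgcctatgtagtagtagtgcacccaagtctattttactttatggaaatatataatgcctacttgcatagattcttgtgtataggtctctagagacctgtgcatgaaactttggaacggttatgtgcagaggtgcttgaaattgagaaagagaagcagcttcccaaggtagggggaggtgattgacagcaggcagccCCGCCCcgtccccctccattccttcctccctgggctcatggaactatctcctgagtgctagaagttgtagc
Itgam (chr7:128062390-128062689, plus strand, 50.3% GC): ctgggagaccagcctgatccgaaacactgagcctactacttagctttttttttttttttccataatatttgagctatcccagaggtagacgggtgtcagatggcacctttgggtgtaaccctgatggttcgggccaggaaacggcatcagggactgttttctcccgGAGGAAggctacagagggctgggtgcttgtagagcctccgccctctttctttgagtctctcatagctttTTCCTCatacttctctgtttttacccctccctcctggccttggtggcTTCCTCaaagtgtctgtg

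The Col4a1 and Col4a5 windows each held 1 CCAAT and 1 GGGCGG, the Col4a6 window held 1 GGGCGG, and the Col4a4 window held neither. Over 32851 promoter windows of the same length, 37.4% held CCAAT and 35.7% held GGGCGG, so these short words are common. The Itgam window held 3 copies of GAGGAA, a purine-rich word of the kind bound by ETS factors, and 28.3% of all windows held at least 1. These matches describe letters only and were not tested for function.

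**Figure D1:**
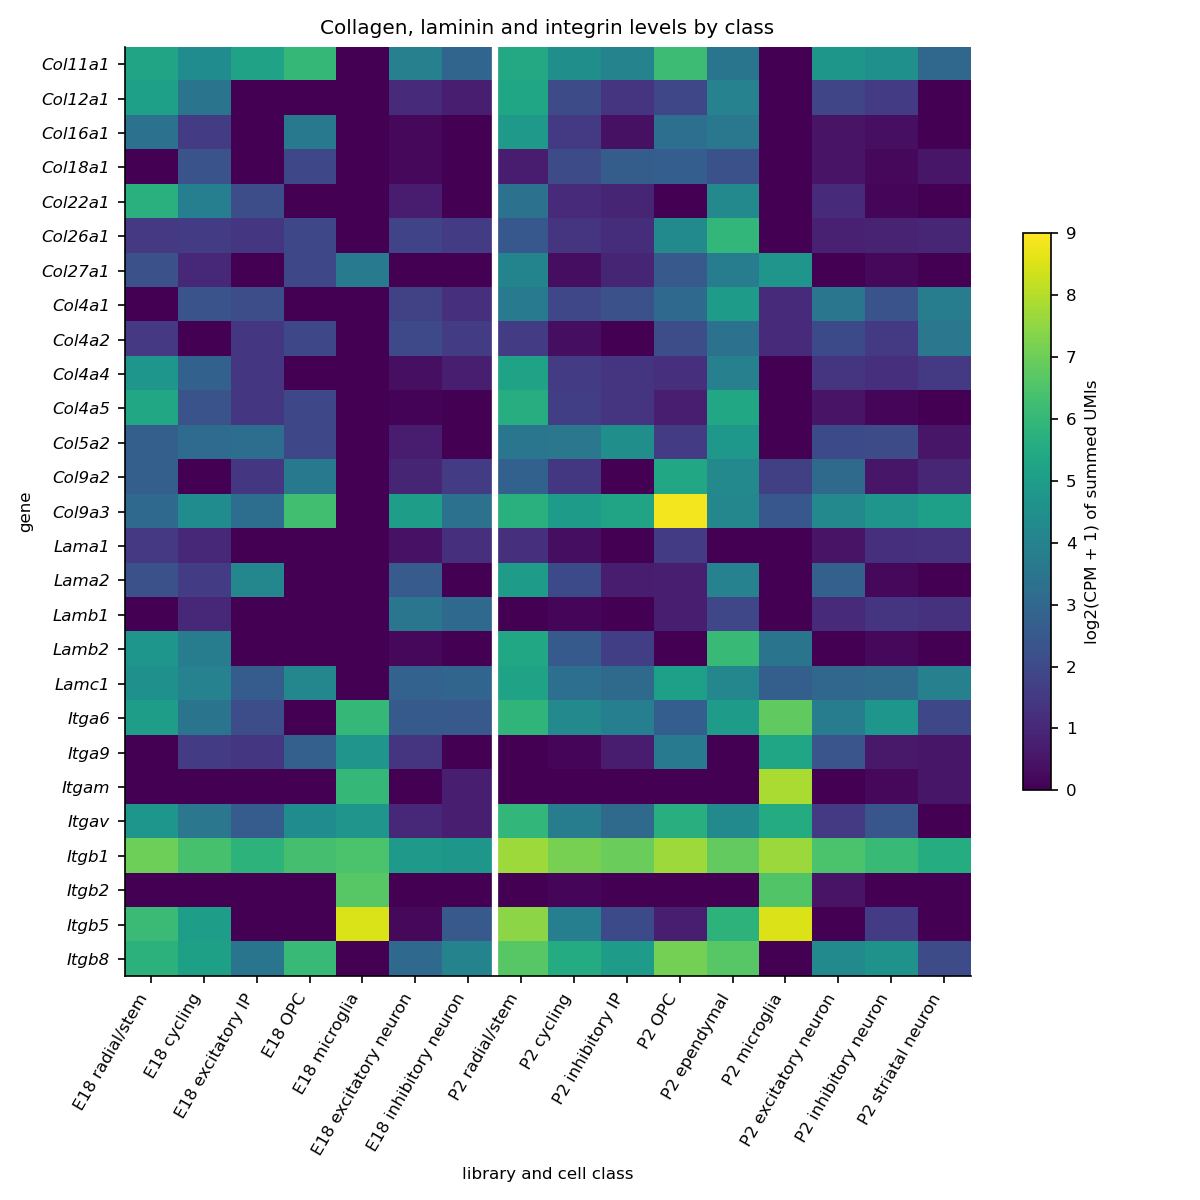
Levels of 27 named chains (rows) in each class of the E18 and P2 libraries (columns), as log2(CPM + 1) by colour. Yellow is high. Itgam and Itgb2 are bright in the microglia columns and dark in the others, Col9a3 is brightest in P2 oligodendrocyte precursors (OPC), and Itgb5, Col4a5 and Lamb2 are bright in both the radial precursor or stem cell and ependymal columns, of which the second includes 29 cells from the radial cluster. IP stands for intermediate progenitor.

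The heat map shows 27 chains named for a high level or a difference between groups, so their patterns are not those of all 80 chains. Summed over all 25 integrin chains, P2 microglia held 1187 CPM (interval 1117 to 1261) and P2 radial precursor or stem cells 634 (595 to 675). P2 excitatory, inhibitory and striatal neurons held 137, 128 and 59.6 CPM of integrin chains. Collagen chains summed to 670 CPM (629 to 713) in P2 oligodendrocyte precursors, against 365 in the radial class, 377 in ependymal cells and 47.0 in microglia. Col9a3 supplied 671 of those 982 UMIs, and without it the order turned: 212 CPM (189 to 237) in oligodendrocyte precursors, 313 (286 to 343) in the radial class and 360 (325 to 398) in ependymal cells. Laminin chains were a smaller pool, with 120 CPM in ependymal cells, 115 in the P2 radial class and 19.0 in microglia.

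The integrins are described first, beginning with the leukocyte chains. Itgam (chr7:128062640-128118491, plus strand), the alpha chain of complement receptor CR3, had 206 UMIs in 32 of 43 P2 microglia, or 231 CPM (200 to 264). Outside microglia it had 0 UMIs in all 5 P2 precursor and glial classes and 3 UMIs in P2 neurons, a difference from microglia of 10.42 on the log2 scale (8.85 to 12.71). In the 10 E18 microglia it had 5 UMIs in 4 cells, or 62.0 CPM (20.1 to 145), and elsewhere at E18 1 UMI in an inhibitory neuron. Itgb2 (chr10:77530252-77565708, plus strand), its beta partner, stood at 94.0 CPM (75.0 to 116) in P2 and 99.3 (42.9 to 196) in E18 microglia. The other partners of Itgb2 were lower in number of cells: Itgax, the CR4 alpha chain, had 34 UMIs in 11 P2 microglia, and Itgal, the LFA-1 alpha chain, had 16 UMIs in 11. In E18 microglia Itgax had 1 UMI and Itgal 0. Itgam and Itgb2 thus followed the microglia class in both libraries, while the level of Itgam between the ages rests on 5 E18 UMIs.

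Microglia also carried integrins outside the Itgb2 group. Itgb5 (chr16:33829665-33949338, plus strand) was at 368 CPM (329 to 410) in P2 microglia and 360 (241 to 517) in E18 microglia, in 34 of 43 and 9 of 10 cells. Itga6, a laminin-binding alpha chain, was at 112 CPM (91.1 to 136) at P2 and 62.0 (20.1 to 145) at E18. Itgb1 stood at 199 and 86.9 CPM. Among chains with fewer UMIs in P2 microglia, Itgav had 41, Itga9 35, Itga5 16 and Itga4 12. Against P2 neurons, 4 of the 9 chains compared were 2-fold or more higher in microglia (Itgam, Itgb5 at 7.98, Itga6 at 2.42 and Itgb1 at 1.56 on the log2 scale) and 4 were lower. Over all genes in that comparison 13.5% were higher and 41.4% lower. Since the minimum is set on the pooled level, Itgam and Itgb5 entered only through microglia, where they were high. The count of higher chains is thus no independent evidence. The lower chains were Col11a1 and Itgb8, both with 0 UMIs in microglia and at least 2.64 and 2.60 lower on the log2 scale, with Col9a3 at -2.46 and Col4a1 at -2.41. The Col4a1 value rests on 1 UMI and was 0.91 at a mitochondrial limit of 5%, and that of Col9a3 fell to -0.59 with doublet-like cells kept. Markers of border macrophages summed to 52.6 CPM in P2 microglia with 2 of 6 at 0 UMIs, and to 62.0 CPM at E18 with 4 of 6 at 0, and their part in these levels was not tested.

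**Figure D2:**
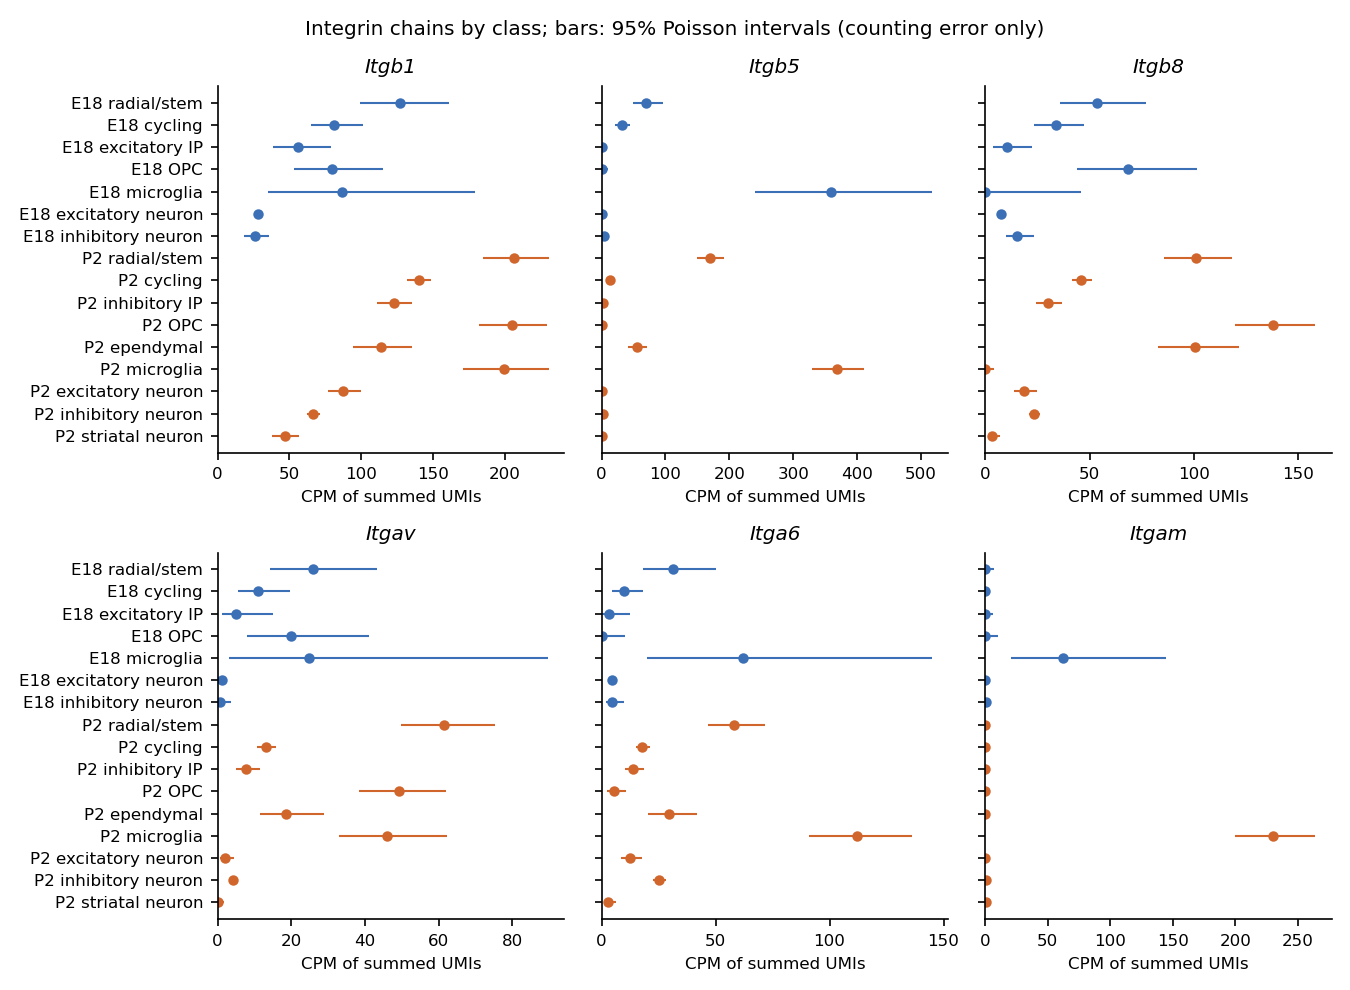
CPM of 6 integrin chains (panels) in each class, E18 in blue and P2 in orange, with exact 95% Poisson intervals for counting error as bars. Itgam lies at or near 0 outside microglia, Itgb5 is high in microglia and in radial precursor or stem cells, and Itgb8 has 0 UMIs in microglia. IP stands for intermediate progenitor and OPC for oligodendrocyte precursor.

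The plot of 6 integrin chains by class sets these microglial levels beside those of the neural classes. Itgb5, the beta chain of a vitronectin receptor, was high in the radial precursor or stem cell class and near 0 in neurons. In the radial class it stood at 70.1 CPM (49.6 to 96.2) at E18 and 170 (150 to 192) at P2. P2 ependymal cells had 55.0 CPM, while neurons had 0.577 at E18 and 1.46 at P2. Oligodendrocyte precursors had 0 UMIs at E18 and 1 at P2, so Itgb5 set the oligodendrocyte precursors apart from the radial class in both libraries. At P2 the radial class exceeded neurons by 6.86 on the log2 scale (6.28 to 7.50). Within P2 cycling cells, 97 of 107 Itgb5 UMIs were in 1 cluster of 85 cells led by genes that include Ccna2 and Egfr, at 34.2 CPM against 2.06 and 1.54 in the other 2 cycling clusters.

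Itgb8 (chr12:119158022-119238802, minus strand), whose pairing with Itgav is known for activating TGF-beta in brain, had another distribution. It was at 53.5 CPM (35.8 to 76.8) in the E18 and 101 (85.5 to 118) in the P2 radial class, and at 68.3 (43.8 to 102) and 138 (119 to 158) in oligodendrocyte precursors. Ependymal cells had 101 CPM, and the unnamed P2 cluster led by Olig1 and Dll3 had 95.1. Microglia had 0 Itgb8 UMIs in both libraries, which allows up to 37.2 CPM at E18 and 3.36 at P2 (the level of 3 UMIs). Neurons held lower levels, 7.51 CPM in E18 excitatory and 18.7 in P2 excitatory cells, but 1 E18 inhibitory cluster led by Adarb2 and Cxcl14 had 45.8 CPM (27.2 to 72.4). Over neurons, Itgb8 was higher by 2.69 in the E18 and 2.31 in the P2 radial class, by 2.76 in P2 oligodendrocyte precursors and by 2.31 in ependymal cells, all on the log2 scale. Itgb8 in E18 oligodendrocyte precursors missed the minimum for a ratio.

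Itgav, the alpha partner of both beta chains, was detected in the radial class, the oligodendrocyte precursors and the microglia, each of which had at least 1 of them. Its levels were 25.8 CPM at E18 and 61.5 at P2 in the radial class, 19.9 and 49.1 in oligodendrocyte precursors, and 24.8 and 45.9 in microglia. At P2 it exceeded neurons by 4.17 (3.69 to 4.65) in the radial class and 3.84 (3.33 to 4.36) in oligodendrocyte precursors on the log2 scale. Of its 103 UMIs in P2 cycling cells, 75 fell in the same Egfr-led cluster that held the Itgb5 UMIs, and the other beta chain, Itgb8, stood at 65.5 CPM there.

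Itgb1 (chr8:128685654-128733200, plus strand), the common partner of laminin- and collagen-binding alpha chains, was present in every class. It had 127 CPM (99.0 to 161) in the E18 and 207 (185 to 231) in the P2 radial class, 79.7 and 205 in oligodendrocyte precursors, and 81.4 and 140 in cycling cells. Neurons were lower, at 28.1 and 26.1 CPM in E18 excitatory and inhibitory cells and at 87.6, 66.7 and 46.8 in P2 excitatory, inhibitory and striatal cells. In the striatal neurons 70 of 157 cells had an Itgb1 UMI, against 79 of 88 P2 radial cells, which were also deeper (median 18420 against 13259 UMIs per cell). Itga6 had a narrower distribution than its partner: 31.4 and 58.2 CPM in the radial class and 25.4 in P2 inhibitory neurons, against 0 and 5.46 in oligodendrocyte precursors and 2.84 in striatal neurons. It was the only compared chain lower in P2 oligodendrocyte precursors than in neurons, by -1.93 on the log2 scale (-3.16 to -0.94). Of the collagen- and laminin-binding alpha chains with few UMIs, Itga1 had 5 and 21 UMIs in the E18 and P2 radial class, and Itga7 0 and 16. The E18 mural cells set aside had more Itga1 by level, at 647 CPM.

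The laminins followed, with beta 2 and beta 1 detected mainly in different classes. Lamb2 (chr9:108479736-108490530, plus strand) was at 25.8 CPM (14.1 to 43.3) in the E18 and 39.9 (30.5 to 51.3) in the P2 radial class and at 66.1 (51.7 to 83.4) in ependymal cells. Neurons had 2 Lamb2 UMIs in each library, and oligodendrocyte precursors had 0 in both. At E18, Lamb1 (chr12:31265234-31329644, plus strand) had 160 UMIs in neurons, 10.3 CPM, and 0 UMIs in the radial class, the excitatory intermediate progenitors and the oligodendrocyte precursors. Of these classes only the intermediate progenitors passed 2-fold, lower by at least 1.01 on the log2 scale, against at least 0.89 in the radial class. In oligodendrocyte precursors 0 UMIs allow up to 8.54 CPM, near the level in neurons. Its highest E18 cluster, excitatory cells led by Nwd2 and Rorb, had 24.2 CPM (16.5 to 34.4), and P2 neurons had 1.52. In the radial class, where 0 UMIs of Lamb1 allow up to 5.53 CPM at E18 and 1.96 at P2, the laminin beta chain detected was therefore Lamb2.

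Among the other laminins, Lamc1, the common gamma chain, was more even. It had 22.1 and 35.3 CPM in the E18 and P2 radial class, 17.1 and 32.8 in oligodendrocyte precursors, and 14.2 in striatal neurons. Lama2 (chr10:26980036-27619758, minus strand), the alpha chain lost in merosin-deficient muscular dystrophy, had 3.69 CPM in the E18 and 29.4 (21.5 to 39.4) in the P2 radial class, 17.0 in E18 excitatory intermediate progenitors and 14.9 in ependymal cells. Lama5, a basement membrane alpha chain, was at 15.8 CPM in ependymal cells and 7.20 in the P2 radial class. Lama4, an alpha chain of vessel walls, had 3 UMIs in the P2 radial class but 11 UMIs in the 5 E18 mural cells set aside.

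**Figure D3:**
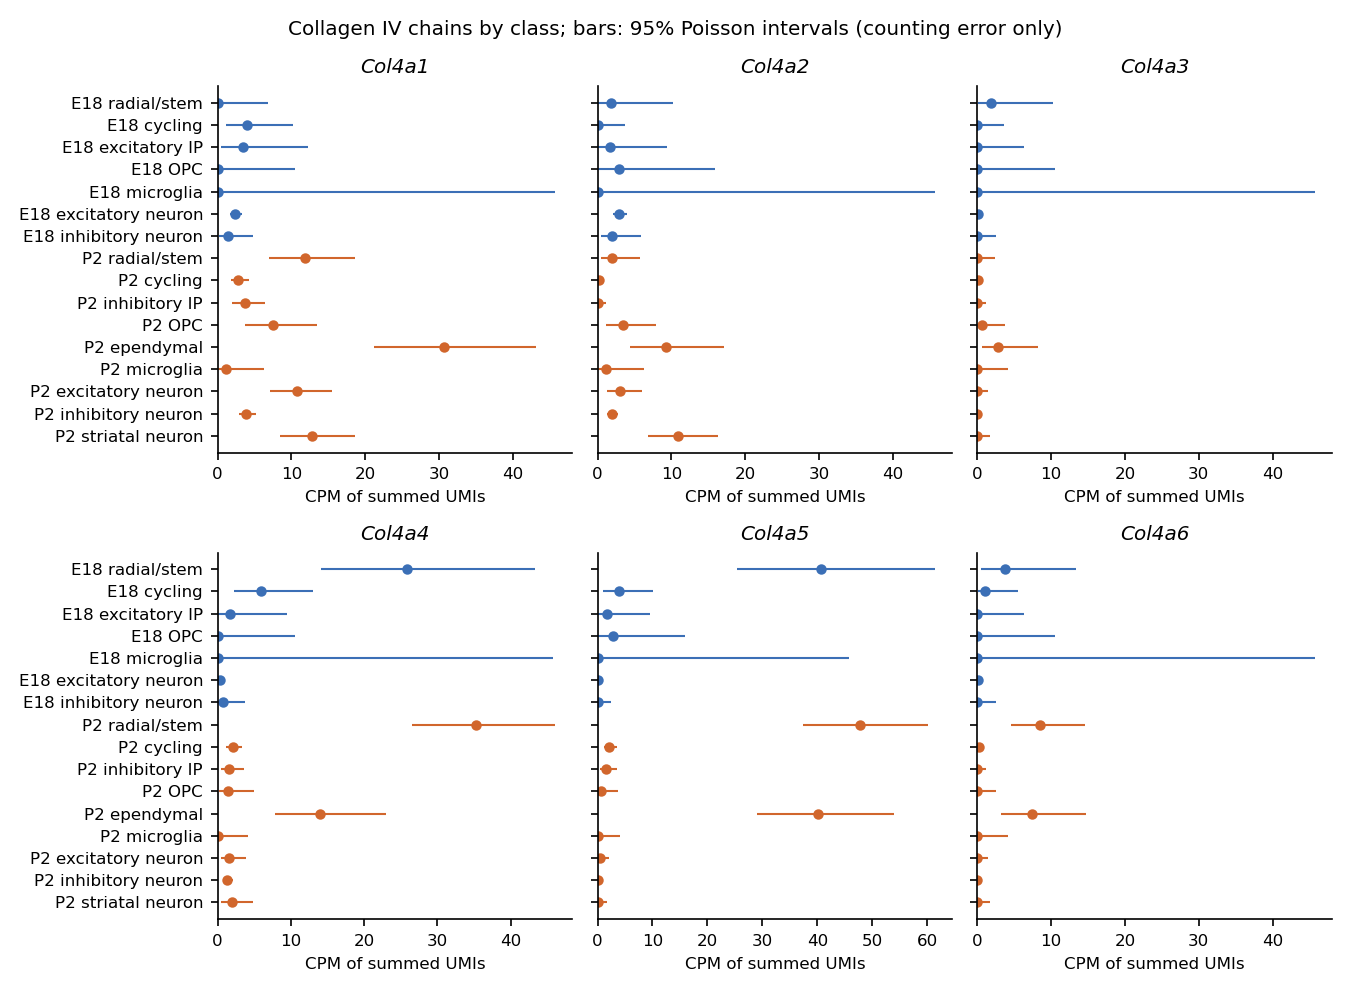
CPM of the 6 type IV collagen chains (panels) in each class, E18 in blue and P2 in orange, with exact 95% Poisson intervals for counting error as bars. Col4a4 and Col4a5 are highest in radial precursor or stem cells, Col4a1 is highest in P2 ependymal cells, and Col4a2 is highest in P2 striatal neurons. IP stands for intermediate progenitor and OPC for oligodendrocyte precursor.

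The plot of the 6 type IV collagen chains shows that head-to-head neighbours were not detected in the same measure. Col4a5 was at 40.6 CPM (25.4 to 61.5) in the E18 and 47.8 (37.4 to 60.1) in the P2 radial class, and its neighbour Col4a6 was at 3.69 and 8.51. Col4a4 was at 25.8 (14.1 to 43.3) and 35.3 (26.5 to 46.1) CPM in the same cells, and its neighbour Col4a3 had 1 and 0 UMIs. Ependymal cells had 40.1 CPM of Col4a5, 14.0 of Col4a4, 7.45 of Col4a6 and 2.79 of Col4a3. In neurons Col4a5 had 1 UMI at E18 and 2 at P2, so that the P2 radial class exceeded them by 8.73 on the log2 scale (6.83 to 11.80), and Col4a4 exceeded them by 4.65 (3.94 to 5.40). The Col4a4 difference was 0.64 when the mitochondrial limit was 5%, a setting that kept 36 cells of the P2 class, while that of Col4a5 was 7.00. Levels of neighbouring genes are molecules detected, not corrected for how well each transcript is captured.

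Col4a1 and Col4a2, the chains of the ubiquitous vascular network, had another distribution. Col4a1 had 0 UMIs in the E18 radial class and 11.8 CPM in the P2 one, with 30.7 CPM (21.2 to 43.2) in ependymal cells, 10.7 in P2 excitatory and 12.8 in striatal neurons. Col4a2 had 10.9 CPM in striatal neurons, 9.31 in ependymal cells and 1.96 in the P2 radial class. Both were lower in P2 cycling cells than in neurons, by -1.09 for Col4a1 and -3.63 for Col4a2 on the log2 scale, though Col4a1 was at -0.74 with a mitochondrial limit of 5% and at -0.89 with a clustering resolution of 0.5. Vascular cells hold far more: the 5 E18 mural cells had 1992 CPM of Col4a1 and 802 of Col4a2. Endothelial markers summed to 3.69 CPM with 7 of 9 at 0 UMIs in the E18 radial class and to 0.654 with 8 of 9 at 0 in the P2 one, while mural markers summed to 88.6 and 99.5 CPM with 5 and 4 of 9 at 0. In ependymal cells these sums were 2.79 with 7 of 9 at 0 and 80.1 with 4 of 9 at 0, and the part of mural cells in the levels of Col4a1 was not tested.

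The remaining collagens divide into fibril-associated, fibrillar and other chains. Col9a3 (chr2:180597790-180622189, plus strand) and Col9a2, chains of the fibril-associated type IX molecule, marked the oligodendrocyte precursors. Col9a3 was at 76.8 CPM (50.6 to 112) at E18 and 458 (424 to 494) at P2, and Col9a2 at 11.4 (3.10 to 29.2) and 40.9 (31.2 to 52.7), whereas Col9a1 had 0 and 5 UMIs. At P2 they exceeded neurons by 4.21 (4.04 to 4.39) and 4.70 (4.03 to 5.40) on the log2 scale. Col9a3 was also found in neurons, at 31.2 CPM in E18 excitatory cells and 32.6 in P2 striatal cells, and it was lower in the E18 radial class than in neurons, by -1.98.

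The P2 level of Col9a3 rested on few oligodendrocyte-lineage cells. Its UMIs per cell ran from 0 over a median of 3 to a maximum of 135, the 3 highest cells held 327 of the 671 UMIs (48.7%), and 9 cells had 10 or more. In a split chosen after these values were seen, the 7 cells with an Enpp6 UMI, a gene of newly forming oligodendrocytes, had 1374 CPM of Col9a3 (1240 to 1518), with 10.7 CPM of Pdgfra, the receptor of the precursors. The other 74 cells had 241 CPM (214 to 271), with 851 CPM of Pdgfra. Col9a3 was thus higher and Pdgfra lower in the 7 cells. Without those 7 cells Col9a3 still exceeded neurons by 3.29 on the log2 scale. At E18 none of the 51 cells had an Enpp6 UMI.

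The fibrillar chain Col11a1 was higher in oligodendrocyte precursors than in neurons in both libraries, at 62.6 CPM (E18) and 70.3 (P2) and by 2.22 and 1.75 on the log2 scale. Its partner Col11a2 had 0 UMIs there at E18 and 28 at P2, of which 18 were in the 7 Enpp6 cells. Col26a1 (chr5:136741759-136883209, minus strand) was at 18.4 CPM in P2 oligodendrocyte precursors and at 60.5 (46.7 to 77.2) in ependymal cells, where 17 of 40 cells had a UMI. Col5a2, a chain of type V fibrils, was found in several precursor classes: 21.4 CPM (16.6 to 27.0) in inhibitory intermediate progenitors 11.0 (8.76 to 13.5) in P2 cycling cells, 10.5 in the P2 radial class and 27.8 in the unnamed cluster led by Olig1 and Dll3, against 3.14 in inhibitory neurons. It exceeded P2 neurons by 2.93 (2.38 to 3.48) and 1.96 (1.44 to 2.50) on the log2 scale. Col18a1, the source of endostatin, was at 5.26 and 3.18 CPM in the same classes and at 0.153 in inhibitory neurons.

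Several other collagens were detected in the radial class, though at P2 Col22a1 and Col1a2 were higher in ependymal cells and Col27a1 in microglia. Col12a1, a fibril-associated chain, had 33.2 CPM (19.7 to 52.5) at E18 and 38.6 (29.4 to 49.8) at P2 and exceeded P2 neurons by 4.38 on the log2 scale. Col22a1 (chr15:71795795-72034227, minus strand), a chain of tissue junctions, had 51.7 CPM (34.3 to 74.7) at E18 and 9.16 (5.01 to 15.4) at P2, with 17.7 in ependymal cells and 13.9 in E18 cycling cells. Col16a1 had 9.22 and 28.1 CPM and Col27a1 had 3.69 and 15.7, and Col27a1 also had 24.6 in P2 microglia. Col1a2 was present at 9.22 and 24.9 CPM and at 43.8 in ependymal cells, without the other chains of interstitial fibrils: Col1a1 had 1 and 0 UMIs in the radial class and Col3a1 had 0 in both. The fibroblast marker list summed to 73.8 CPM in the E18 and 41.2 in the P2 radial class with 4 of 7 markers at 0 UMIs in each. In neurons, Col15a1 had 42 UMIs at E18 and 0 at P2, and Col19a1 had 20 UMIs in E18 inhibitory neurons and 0 in P2 ones. Neurons held 15604772 of the 18226068 UMIs of kept E18 cells, so these counts do not rank the classes by level.

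Set against the neurons of the same library, which all these contrasts share, most chains that could be compared were higher in the radial class. The neurons of the E18 library are mostly excitatory and those of the P2 library mostly inhibitory, so the reference differs between the ages. At P2, 12 of the 13 chains compared were 2-fold or more higher and 0 lower, where 18.1% of all genes compared were higher and 18.4% lower. The minimum is set on the pooled level, so chains such as Itgb5 and Col4a5 entered only through the radial class, where they were high. Their count is thus no independent evidence, and it changes with the minimum, as given below. The same minimum was used in every contrast here, so the other counts of chains or list genes are no independent evidence either. The median of the 13 was 2.08 on the log2 scale, against -0.10 over all genes. Besides those given above, the 12 included Lamc1 at 2.08, Col5a2 at 1.90, Itgb1 at 1.62, Itga6 at 1.48, Col9a3 at 1.07 and Col11a1 at 1.00. The last pair fell below 2-fold under 6 and 7 of the alternatives, to 0.61 and 0.58 at the lowest. At E18 only 5 chains could be compared, of which 3 were higher (Itgb8, Itgb1 at 2.19 and Col11a1 at 1.46) and Col9a3 was lower, with 12% and 22.6% of all genes higher and lower. The Col9a3 difference at E18 was -0.12 at a clustering resolution of 0.5, where cells of other clusters joined the class.

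Oligodendrocyte precursors showed 7 higher and 1 lower of 9 chains at P2, against 14.0% and 9.21% of all genes, and 3 higher and 0 lower of 3 at E18, against 6.01% and 22.8%. The P2 chains were Col9a2, Col9a3, Itgav, Itgb8, Lamc1 at 1.97, Col11a1 and Itgb1 at 1.60, and the E18 chains were Col11a1, Itgb1 at 1.51 and Col9a3 at 1.40. At P2, Col9a2 entered only through this class, where it was high, so the count is no independent evidence. Ependymal cells showed 3 higher and 1 lower of 7 chains (20.3% and 20.2% of all genes), namely Col4a1 at 2.37, Itgb8 and Lamc1 at 1.00, with Col11a1 lower at -1.03. Lamc1 there fell below 2-fold under 5 alternatives, to 0.68 at the lowest, and Col11a1 under 2, to -0.97. Lamb2, Col26a1 and Col4a5 were higher in ependymal cells by level but missed the minimum for a ratio because neurons held few UMIs. In a split made after these values were seen, the 8 cells of the ependymal cluster had 55.9 CPM of Col4a1, 123 of Col26a1 and 60.6 of Col1a2, against 14.0, 18.6 and 32.6 in the 32 cells moved in. The order was the other way for Itgb5 at 18.6 and 79.2 CPM, Itgb8 at 67.5 and 123, Col4a5 at 18.6 and 54.3 and Col4a4 at 4.66 and 20.2. Lamb2 was high in both, at 76.9 (52.9 to 108) and 59.0 CPM (41.7 to 81.0). The levels of Itgb5, Col4a5 and Col4a4 in the ependymal class thus came mostly from the cells moved in.

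Cycling cells were compared at 33 chains at P2, of which 12 were higher and 8 lower, against 13.3% and 18.0% of all genes. The higher chains included Lamb2 at 5.43 (3.48 to 8.52), Col18a1 at 3.82, Itgb5 at 3.22, Col5a2 and Itgav at 1.94. Most of the first rested on 1 cluster: 36 of 38 Lamb2 UMIs were in the Egfr-led cells. Lamb2 entered only through the cycling class, where it was high, so the count of higher chains is no independent evidence. Itgb8 at 1.18 and Itgb1 at 1.05 were also higher. Itgb8 fell to 0.87 at a mitochondrial limit of 5% and Itgb1 to 0.76 at a clustering resolution of 0.5. The lower chains included Col4a2, Lamb1 at -3.57, Itga9 at -3.07, Lama1, Itga2b, Itga3 and Col4a1, of which Lamb1 and Itga9 each had 1 UMI in cycling cells and Lamb1 was at -0.86 with a mitochondrial limit of 5%. At E18, 4 of 7 chains were higher in cycling cells and 1 lower, against 13.2% and 23.0% of all genes: Itgb8 at 2.03, Itgb1 at 1.54, Lamc1 at 1.28 and Itga6 at 1.05 were higher and Lamb1 lower at -3.37, with 1 UMI. Lamc1 and Itga6 fell to 0.99 and 0.76 under TMM scaling, and Lamb1 turned to 0.58 when the 5 mural cells were left in the class.

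Intermediate progenitors were compared at few chains. The E18 excitatory ones had 2 higher and 2 lower of 4 chains (7.47% and 19.3% of all genes): Col11a1 at 1.41 and Itgb1 at 1.01 were higher, Col9a3 at -1.78 and Lamb1, with 0 UMIs, were lower. The P2 inhibitory ones had 3 higher and 1 lower of 12 (11.2% and 20.9%): Col5a2, Itgav at 1.17 and Itgb5 at 1.08 were higher and Col4a2, with 0 UMIs, was lower by at least 1.76 on the log2 scale. Itgb1 reached 0.87 there, under the 2-fold limit. The E18 Itgb1 value fell to between 0.80 and 0.99 under 5 alternatives and that of Lamb1 to -0.97 at the lowest under 2. At P2, Itgav fell to 0.55 as a mean of single-cell CPM and Itgb5 to between 0.84 and 0.98 under 3 alternatives.

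**Figure D4:**
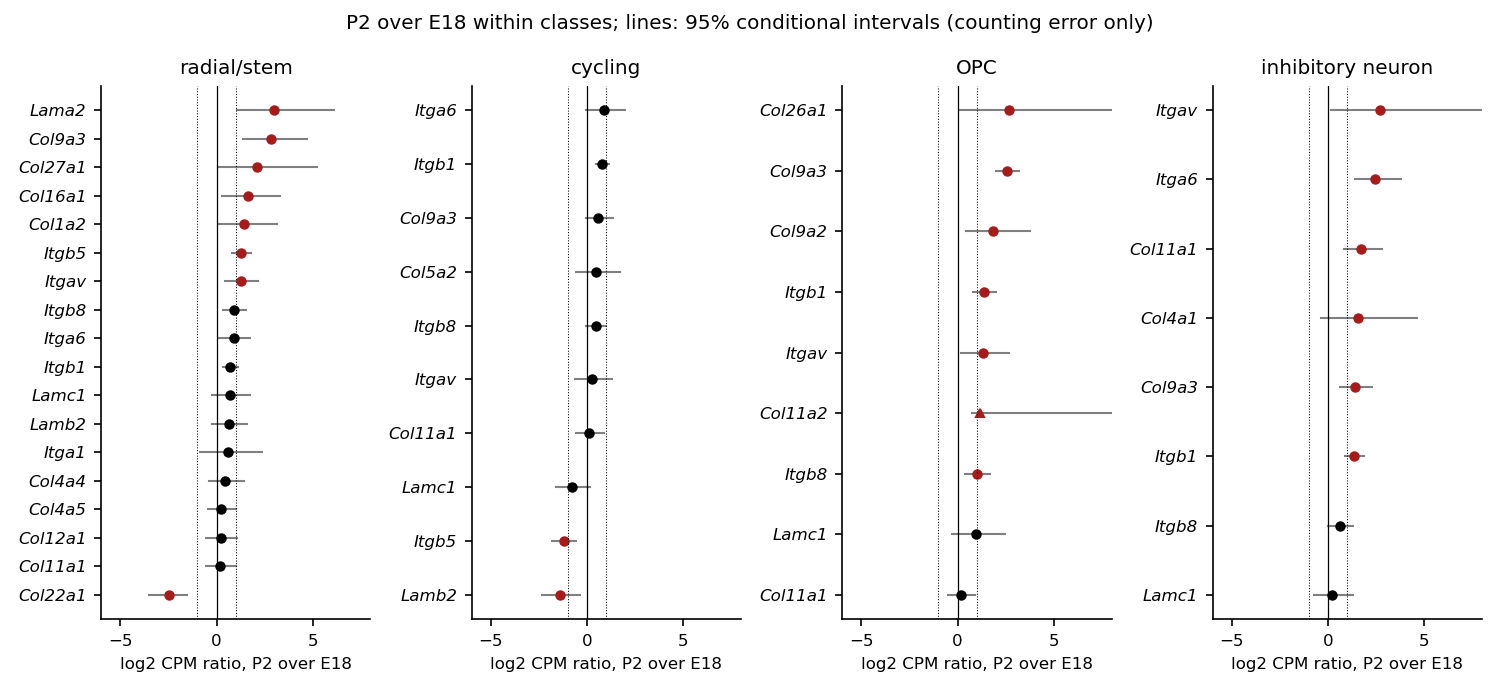
log2 ratios of P2 over E18 CPM for the chains compared in radial precursor or stem cells, cycling cells, oligodendrocyte precursors and inhibitory neurons, with 95% conditional intervals for counting error. Red points differ 2-fold or more, a triangle is a lower bound, and dotted lines mark 2-fold. Lama2 and Col9a3 are farthest to the right and Col22a1 is the only red point on the left in the radial class.

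Between the libraries, the plot of P2 over E18 ratios shows 7 of 18 chains 2-fold or more higher and 1 lower at P2 in the radial class, where 21.0% of all genes compared were higher and 5.73% lower. The median of the 18 was 0.80 on the log2 scale and that of all genes 0.21. Lama2 rose from 2 to 45 UMIs, a ratio of 3.0 (1.06 to 6.09), and Itgb5 from 38 to 260, a ratio of 1.28 (0.78 to 1.81). The others were Col9a3 at 2.81 (1.40 to 4.72), Col27a1 at 2.09, Col16a1 at 1.61, Col1a2 at 1.43 and Itgav at 1.25. Of these, Col9a3 was 0.75 at a clustering resolution of 0.5, Itgav was 0.98 with marker cells left in place and Col1a2 was -0.28 at a mitochondrial limit of 5%. Col22a1 fell, from 28 UMIs in 20 of 90 cells to 14 UMIs in 11 of 88 cells at higher depth, a ratio of -2.50 (-3.53 to -1.52). Ratios under 2-fold were those of the basement membrane chains Col4a5 at 0.23 (-0.47 to 0.99), Col4a4 at 0.45 (-0.42 to 1.42) and Lamb2 at 0.63 (-0.23 to 1.58). Col12a1 was likewise under it at 0.22 (-0.56 to 1.07). Of these intervals only that of Col4a5 stayed within 2-fold. The astrocyte markers of the class were higher at P2, as given above, and their part in these ratios was not tested.

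In the other classes the ratios went in several directions. In oligodendrocyte precursors 7 of 9 chains were higher at P2 and 0 lower, against 30.3% and 4.93% of all genes, and the medians were 1.30 for the chains and 0.43 for all genes. Oligodendrocyte markers in this class summed to 256 CPM at E18 and 3330 at P2. Without the 7 Enpp6 cells 6 of 8 chains were higher and 0 lower, but the share of all genes was not computed for that set of cells. Col9a3 stood at 2.58 (2.02 to 3.19) and at 1.65 without the 7 Enpp6 cells, Col9a2 at 1.85 (0.42 to 3.77) and 1.57, Itgb1 at 1.36 (0.80 to 1.98) and 1.33, and Itgav at 1.30 (0.19 to 2.67) and 1.5. Itgav was at 0.99 with doublet-like cells kept. Col26a1 at 2.69 rested on 1 E18 UMI, Col11a2 was at least 1.16 higher against 0 E18 UMIs and turned to -0.017 without the Enpp6 cells, and Itgb8 at 1.01 fell below 2-fold under 3 alternatives. Col11a1 was at 0.17 (-0.51 to 0.90), so the type IX chains and Col11a1 differed in their ratios.

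In cycling cells 0 of 10 chains were higher and 2 lower, against 16.5% and 6.51% of all genes: Lamb2 at -1.42 (-2.36 to -0.38) and Itgb5 at -1.22 (-1.80 to -0.60). Both are the chains that sat in 1 of the 3 P2 cycling clusters. That cluster, singled out because it held most of their P2 cycling UMIs, had 12.7 CPM of Lamb2 and 34.2 of Itgb5. All E18 cycling cells had 12.9 and 31.8 CPM, but a part chosen by these values is not comparable with a whole class. Radial markers summed to 14633 CPM in E18 and 4568 in P2 cycling cells, and their part in these ratios was not tested. The inhibitory neurons hold different cells in the libraries: the E18 clusters were led by Sst and Lhx6, by Adarb2 and Cxcl14 and by Pbx3 and Foxp2, and the 7 P2 clusters by genes such as Foxp2, Mcub, Ntng1, Nr2f2 and Six3. There 6 of 8 chains were higher at P2 and 0 lower, against 20.2% and 10.1%: Itgav at 2.68, Itga6 at 2.44 (1.38 to 3.77), Col11a1 at 1.72, Col4a1 at 1.54, Col9a3 at 1.40 and Itgb1 at 1.35 (0.89 to 1.86). The Itgav and Col4a1 ratios rest on 1 and 2 E18 UMIs. Microglia, with 10 E18 cells, are given by values only: the log2 ratio was 1.89 for Itgam, 1.20 for Itgb1, 0.85 for Itga6, 0.03 for Itgb5 and -0.08 for Itgb2.

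Within P2, cells with an EYFP UMI were compared with cells of the same class without one, both from the 1 library of dorsal and lateral V-SVZ. Lineage differs between them by design, and position in that tissue was not tested. The inhibitory cluster led by Mcub and Ccnd2 held 95 of 300 cells with EYFP and 101 of 827 without, so the make-up of a class differs too. A cell of the lineage can lack an EYFP UMI by sampling, and cells with EYFP were somewhat deeper (medians of 11113 against 9359 UMIs in inhibitory neurons). Col9a3 was 2-fold or more higher with EYFP in all 3 classes compared: 40.7 against 20.3 CPM in cycling cells, 51.9 against 22.7 in inhibitory intermediate progenitors and 40.7 against 16.5 in inhibitory neurons. The log2 ratios were 1.00 (0.61 to 1.41), 1.19 (0.62 to 1.79) and 1.30 (0.98 to 1.63). Oligodendrocyte precursor markers were also higher with EYFP in these classes, at 410 against 351 CPM, 311 against 145 and 38.4 against 21.5, and their part in the Col9a3 ratios was not tested. The ratios fell to 0.87 and 0.77 in the first 2 classes with doublet-like cells kept, to 0.52 in the second with the members used in clustering, and to 0.96 in inhibitory neurons at a mitochondrial limit of 5%.

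**Figure D5:**
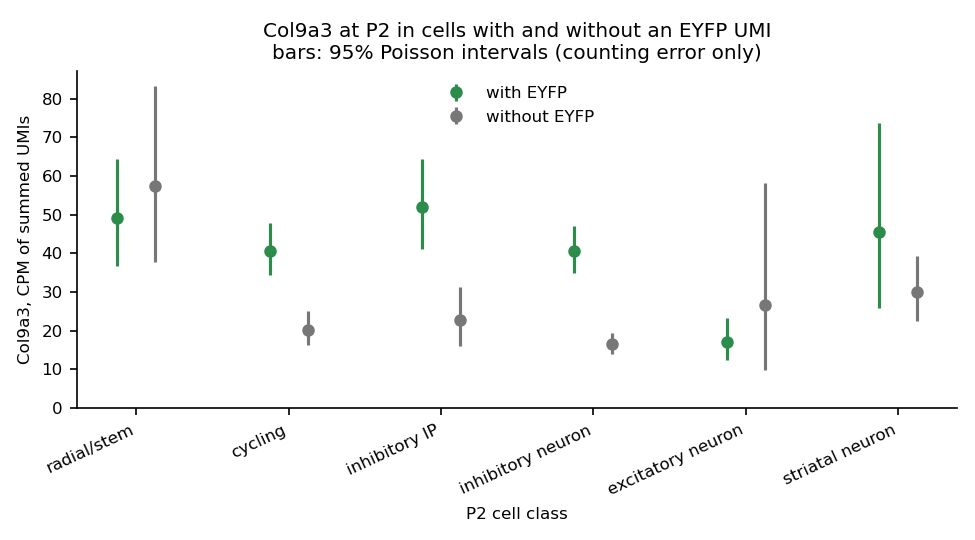
Col9a3 CPM in P2 cells with and without an EYFP UMI in 6 classes, with exact 95% Poisson intervals for counting error as bars. Cells with EYFP are higher in cycling cells, inhibitory intermediate progenitors and inhibitory neurons, and the intervals of both kinds of cell overlap in the other 3 classes. IP stands for intermediate progenitor.

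The plot of Col9a3 by EYFP also shows the classes with too few cells for a ratio, where the order was not the same. Radial precursor or stem cells had 49.2 CPM with and 57.3 without EYFP, excitatory neurons 17.2 and 26.7, and striatal projection neurons 45.4 and 30.1. Oligodendrocyte precursors, which are not in the plot, had 266 CPM (231 to 305) in 46 cells with EYFP and 684 (623 to 749) in 35 without. In this class 3 cells held 48.7% of the Col9a3 UMIs, so the order can depend on a few cells, which was not tested. Among the 7 inhibitory clusters, looked at after the class result was seen, 4 were higher with EYFP. The ratio was 2.15 (1.34 to 3.06) in the cluster led by Mcub and Ccnd2 and 1.69 (0.96 to 2.44) in the one led by Nr2f2 and Neb, and the intervals of the other 5 included 0. The lowest ratio was -1.54 (-6.94 to 1.16), from 1 UMI with EYFP, and whether the clusters differ was not tested.

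Of the other chains that passed 2-fold by EYFP, Col5a2 in 1 class had an interval that left out 0. In cycling cells 4 of 20 chains were higher and 3 lower, against 2.62% and 2.79% of all genes, in inhibitory intermediate progenitors 2 and 2 of 10, against 3.21% and 3.50%, and in inhibitory neurons 2 and 1 of 17, against 1.49% and 3.53%. Apart from Col9a3, the chains that passed in cycling cells were Col4a4, Col23a1, Col12a1, Col9a2, Col18a1 and Col26a1, with 2 to 18 UMIs a side, and each of their intervals included 0. In inhibitory neurons these included Itgb5, and in inhibitory intermediate progenitors Col4a1 and Col18a1, again with intervals that included 0. Col5a2 in inhibitory intermediate progenitors was lower with EYFP, at -1.30 (-2.14 to -0.51), and this fell short of 2-fold under 4 alternatives, to -0.69 at the lowest size. Itgb1 was at 0.07, 0.13 and 0.07 in the 3 classes, with the widest interval from -0.16 to 0.43.

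The genes that process and serve these chains were followed in 4 lists, to be read against the shares of all genes given above for the radial class over neurons (18.1% higher and 18.4% lower at P2, 12% and 22.6% at E18). Of the collagen modification and crosslinking list (22 genes), 5 of 12 compared were 2-fold or more higher and 1 lower in the P2 radial class over neurons, and 4 of 9 higher and 0 lower at E18. Serpinh1, the collagen chaperone, was higher at both ages, at 5.73 at E18 and 5.43 at P2 on the log2 scale. P4ha3, a prolyl hydroxylase subunit, stood above it at P2, at 6.30. The list of basement membrane partners and other matrix receptors (12 genes) had 3 of 5 higher at P2 and 3 of 4 at E18, among them the dystroglycan gene Dag1 at 2.39 and 2.40. Integrin adaptors (21 genes) had 7 of 15 higher and 1 lower at P2 and 5 of 12 higher and 1 lower at E18, with the kindlin gene Fermt2 at 2.72 and 1.82. Of the genes of integrin-linked TGF-beta activation (9 genes), Tgfb2 stood at 3.48 at P2 and 5.50 at E18.

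In other classes different members of the lists were higher. P2 microglia were higher in the leukocyte adaptors Apbb1ip at 11.31 and Fermt3 at 8.03 and in Tgfb1 at 9.15 and Nrros, which tethers latent TGF-beta on microglia, at 7.37, while Fermt2 was lower at -2.27 and the focal adhesion kinase gene Ptk2 at -5.49. In all, 8 of 16 integrin adaptors were higher and 5 lower there, and 0 of 5 basement membrane partners were higher and 3 lower. Of the TGF-beta activation genes, 2 of 4 compared were higher and 2 lower. Over all genes, 13.5% were higher and 41.4% lower. P2 oligodendrocyte precursors were higher in 8 of 16 adaptors and lower in 0 (14.0% and 9.21% of all genes), led by Lims2 at 7.44 and Parvb at 3.33. Between the libraries, the crosslinking enzyme gene Loxl1 was lower at P2 in the radial class at -1.99 and in cycling cells at -4.63, and Serpinh1 was lower in cycling cells at -1.90. In cycling cells 0 of 13 modification genes were higher and 2 lower (16.5% and 6.51% of all genes), and in oligodendrocyte precursors 7 of 11 were higher and 1 lower (30.3% and 4.93%), where Serpinh1 was the lower one at -2.62.

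The 4 matched symbols that are not chains behaved otherwise. Itgb3bp, a centromere protein named for binding the beta 3 tail, was at 53.6 CPM in E18 and 61.1 in P2 cycling cells and exceeded neurons by 3.08 and 2.38 on the log2 scale. Itgb1bp1, a regulator of Itgb1, differed from neurons by less than 2-fold in all classes compared, from -0.33 to 0.73. Col4a3bp, a ceramide transfer protein, was at 20.1 CPM in P2 inhibitory neurons and 3.35 in E18 ones, a ratio of 2.59. Itgb1bp2, a muscle protein that binds Itgb1, had 7 UMIs in P2 cycling cells and 17 in P2 neurons.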

How the data were processed

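The deposited matrices hold raw UMI counts, 1 row per gene and 1 column per barcode. Per the file headers, the authors made these counts with Cell Ranger 4.0.0, and per the submitters' processing notes with version 4 against mm10. The deposited gene and barcode lists hold names only, a kind of value recorded as other. Not given in the sources used here: cell calling, strand setting, chemistry. In all, the E18 library held 2922 barcodes and 19986915 UMIs (median 6292.5), the P2 library 2778 barcodes and 42572208 UMIs (median 11764), and the libraries shared 0 barcodes.

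Cells with under 500 genes or over 10% mitochondrial UMIs were removed (291 at E18, 336 at P2). Scrublet (scanpy 1.11.5) called 7 and 4 doublets, too few for a working call, so cells in the top 5% of scores were dropped (135 and 146). Each library was clustered alone without the chains (2000 variable genes, 30 components, Leiden resolution 1, leidenalg 0.10.2) into 16 and 20 clusters, named from 19 marker lists.

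UMIs were summed per class and scaled to CPM. Intervals are exact Poisson for levels and exact conditional for ratios (scipy 1.17.1). Where a group had 0 UMIs, 3 UMIs in the whole group served as its floor, giving an "at least" ratio. PCR and library effects are not covered. The ratio step was tested on simulated data. Chains were named where they reached 50 CPM and 20 UMIs in a class of 20 or more cells, or differed 4-fold with 10 or more UMIs, which gave 28 chains, 27 of them shown. Some items are not reported here, though counts include them. Others are given where a family or role called for them, chosen after their values were seen. Alternatives were TMM scaling (edgeR 4.0.16, R 4.3.3), other filters, minimums, clusterings and averages. The members and lists were chosen with earlier results of these data known. Coordinates are from GENCODE (GRCm38), which matched 84 of 84 symbols, and promoter sequences from RefSeq (GRCm38.p6).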

Additional observations from a re-analysis of the deposited data

Results flagged for a closer look

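Col9a3 differed from neurons in opposite directions in the radial precursor or stem cell class of the libraries, with a log2 ratio of -1.98 at E18 and 1.07 at P2. Itgb5 differed between the libraries in opposite directions in 2 classes, with a log2 ratio of P2 over E18 of 1.28 in the radial class and -1.22 in cycling cells. With 1 library per age, neither of these differences was tested. The first went to -0.12 at E18 with a clustering resolution of 0.5.

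The cells set aside from every class held signal of vascular and mural matrix that no comparison uses. The single E18 endothelial cell had 903 CPM of Col4a1 and 1083 of Col4a2, from 5 and 6 UMIs. The 5 E18 mural cells had 1992 CPM of Col4a1, 802 of Col4a2, 259 of Col1a1, 181 of Col3a1 and 207 of Col5a2 among the collagens. Among their laminins, Lamb1 stood at 388 CPM, Lamc1 at 285 and Lama4 at 285. Among their integrins, Itga1 stood at 647 CPM and Itgav at 233. These levels lie above those of the same chains in any named class of the E18 library.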

How the results depend on the processing

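Over 109 chain and contrast pairs, 837 values were computed under the alternatives that can change a ratio: 773 stayed within the 95% counting interval of the reported value, 58 moved outside it and 6 changed sign. Of the pairs, 40 of 109 had a ratio under 2-fold in 1 or more of them. The cause was not tested except where the setting itself removes cells or chains. The reversals were Lamb1 in E18 cycling cells, 0.58 with marker cells left in place, Col16a1 in P2 cycling cells, -0.13, Col4a1 in P2 microglia, 0.91, and Col1a2 in the radial class between the libraries, -0.28, all 3 at a mitochondrial limit of 5%. The others were Col11a2 in oligodendrocyte precursors between the libraries, -0.017 without the Enpp6 cells, and Col12a1 in cycling cells by EYFP, -0.34 as a mean of single-cell CPM.

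Counts of chains 2-fold or more apart depend most on the minimum of expected UMIs. The share of all genes was not computed under the alternatives, so their counts here and in the next paragraph describe the rule only. In the order E18 radial class, cycling cells, excitatory intermediate progenitors and oligodendrocyte precursors over neurons, they were 4, 5, 4 and 3. With a minimum of 20 they were 0, 1, 0 and 0, and with none 55, 53, 50 and 56. For the P2 radial class, cycling cells, inhibitory intermediate progenitors, oligodendrocyte precursors, ependymal cells and microglia over neurons they were 12, 20, 4, 8, 4 and 8. With a minimum of 20 they were 6, 6, 0, 5, 2 and 3, and with none 51, 38, 31, 51, 57 and 56. Between the libraries the radial class, cycling cells, oligodendrocyte precursors and inhibitory neurons had 8, 2, 7 and 6. With a minimum of 20 the first 3 had 3, 0 and 3, and with none all 4 had 23, 41, 34 and 47. By EYFP, cycling cells, inhibitory intermediate progenitors and inhibitory neurons had 7, 4 and 3, against 1, 2 and 1 with a minimum of 20 and 22, 20 and 20 with none.

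At a resolution of 0.5 the E18 radial class had 11, P2 cycling cells 12 and the radial class between the libraries 21. At a mitochondrial limit of 5% the P2 radial class had 6, P2 cycling cells 8, and cycling cells and inhibitory neurons by EYFP 4 and 1. As a mean of single-cell CPM the E18 excitatory intermediate progenitors had 2 and inhibitory neurons by EYFP 7, and without the highest cell 2 and 6. TMM scaling gave 3 in E18 cycling cells, members in clustering 10 in inhibitory intermediate progenitors, marker cells left in place 4 in cycling cells between the libraries, and doublet-like cells kept 3 in oligodendrocyte precursors between the libraries and 1 in inhibitory neurons by EYFP. The mitochondrial limit for the EYFP contrasts and the Enpp6 split were chosen after seeing the data.

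No value could be had at resolution 0.5 for E18 cycling cells and oligodendrocyte precursors, P2 inhibitory intermediate progenitors and the contrasts that use them, with doublet-like cells kept for the P2 radial class, whose cells then took the astrocyte name, or at a mitochondrial limit of 5% and with marker cells left in place for ependymal cells. No paired analysis was possible because each age is 1 library. Depth limits chains of few UMIs: 1 UMI in the 10 E18 microglia is 12.4 CPM of Col27a1, and 0 UMIs there allow up to 37.2 CPM (3 UMIs).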
